A study of Drosophila melanogaster with 9 samples.

Results

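Some protein-coding genes of *Drosophila melanogaster* still carry only a computed gene number, CG followed by digits, in place of a name. The genes described here are the CG-numbered genes whose transcripts were gained when S2R+ cells were grown in fly extract (FEx) instead of serum. They were chosen on CPM, the count of a gene over the library total times 1000000. A gene had to average at least 2 CPM in both FEx media, M3 + 2.5% FEx and M3 supplemented with 10% FEx, and each of these means had to be at least 4 times the mean in the serum medium. Of 17562 genes in the count table, 6068 had a symbol of this form, and 49 of them met the rule. They were 2.22% of the 2211 CG genes that reached the CPM minimum in both FEx media, against 1.68% of all 7386 genes that reached it. CG9733 also passed the thresholds but was left out, as 1 of 12 CG genes in the table that the selection set aside.

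S2R+ is a line of embryonic origin, from Oregon-R, with a hemocyte (fly blood cell) expression profile. Control cells grew in MB10, which is Shields and Sang M3 medium with bactopeptone, yeast extract and 10% fetal calf serum. The other cells were adapted stepwise to M3 without bactopeptone, yeast extract or serum, supplemented with 2.5% or 10% FEx, a soluble extract of whole adult male and female flies; these media are called 2.5% FEx and 10% FEx below. Poly(A) RNA was sequenced from 3 libraries per medium. The adaptation was serial: cells were first brought into 10% FEx, and the 2.5% FEx cells came from there by way of 5% FEx. The FEx concentration, the order of adaptation and the passages in culture therefore cannot be told apart between the FEx media, nor can FEx, the missing components and the adaptation relative to MB10. Nothing in the labels says that the 3 libraries of a medium came from independent adaptations. The p-values below therefore set differences between media against the spread between these libraries, which may be technical. They do not reach beyond these cultures to other adaptations. Libraries held 20694827 to 29076620 counts, and replicates differed by more than counting noise (chi-square per degree of freedom 9.75 to 66.1). In bulk RNA, more cells of a type and more RNA per cell cannot be told apart.

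Of 10 plasmatocyte (phagocytic hemocyte) markers listed, crq and srp were high in every medium, at means of 415 to 445 and 230.0 to 290.2 CPM. Of these, srp was somewhat lower in 10% FEx than in MB10 (log2 -0.34). Others were scarce: eater stood at 3.37, 2.12 and 2.37 CPM in MB10, 2.5% FEx and 10% FEx, and Col4a1 at 4.50, 4.23 and 2.78 CPM. The levels of vkg were 2.91, 2.49 and 2.51 CPM, those of He 0.680, 0.777 and 2.79 CPM, and NimC1 was too low to be tested. Pxn, a peroxidase of plasmatocyte matrix, fell from 377 CPM in MB10 to 162 and 89.4 CPM, and Hml fell in 10% FEx, from 12.03 to 3.23 CPM. Of 19 hemocyte markers listed, 18 were tested, and 4 rose in 2.5% FEx against 2 that fell. The background over all genes tested was 5.59% higher and 2.93% lower. In 10% FEx, 7 rose and 3 fell, beside a background of 7.34% and 3.63%. The members' levels are described beside these shifts. Their part in the members' values was not tested.

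As background, hemocytes secrete antimicrobial peptides and serine proteases. In fly hemolymph, clip-domain serine proteases (cSP) cut one another in cascades that activate Toll signaling and melanization, and serine protease homologs (SPH) keep the fold but lack a residue needed for cutting. RefSeq gives 9 of the 49 members a serine protease (SP or cSP) or homolog (SPH or cSPH) synonym. CG7888 has the synonym SLC36, the name of a family of amino acid transporters. For the other members, the annotation used here gave no role, and none is assigned.

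All 49 members were annotated as protein-coding. They lay on chromosome arms 3R (14), 2R (11), 2L (9), 3L (8), X (6) and 4 (1). Their exons covered a median of 2932 bases in 5 blocks, compared with 1752 bases in 3 blocks for the other 2636 CG genes tested, and ranged from 637 to 8272 bases. The 2 sets are unlike, since only the members had to reach 2 CPM in both FEx media, on counts not scaled by length. The length difference is therefore a description only. CG2217 and CG42740 occupy the same coordinates on 3R (30418767 to 30422971, minus strand) and had identical counts in all 9 libraries, so the 49 members hold 48 distinct count profiles. These counts cannot be divided between the 2 genes.

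Levels below are CPM after TMM scaling, which adjusts library totals for composition. Because the rule chose the members by their rise over MB10, their levels in MB10 and in FEx are given as a description and not tested. Summed over the members, the level was 107 to 111 CPM in the MB10 libraries, 958 to 999 CPM in 2.5% FEx and 1276 to 1314 CPM in 10% FEx. The 4 highest members made up 40.8% and 42.3% of these sums in the 2 FEx media. In MB10, 24 members averaged under 1 CPM, 18 averaged 1 to 5 CPM and 7 averaged more. No member was at 0 counts in any MB10 library. The ratio of the mean in FEx to that in MB10 had a median of 8.68 in 2.5% FEx (3.89 to 89.7) and of 10.3 in 10% FEx (4.11 to 162.6), and 18 members were at least 10-fold higher in both. The lowest of the 6 FEx libraries was above the highest MB10 library for every member, by 2.70 to 84.3 times.

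**Figure D1:**
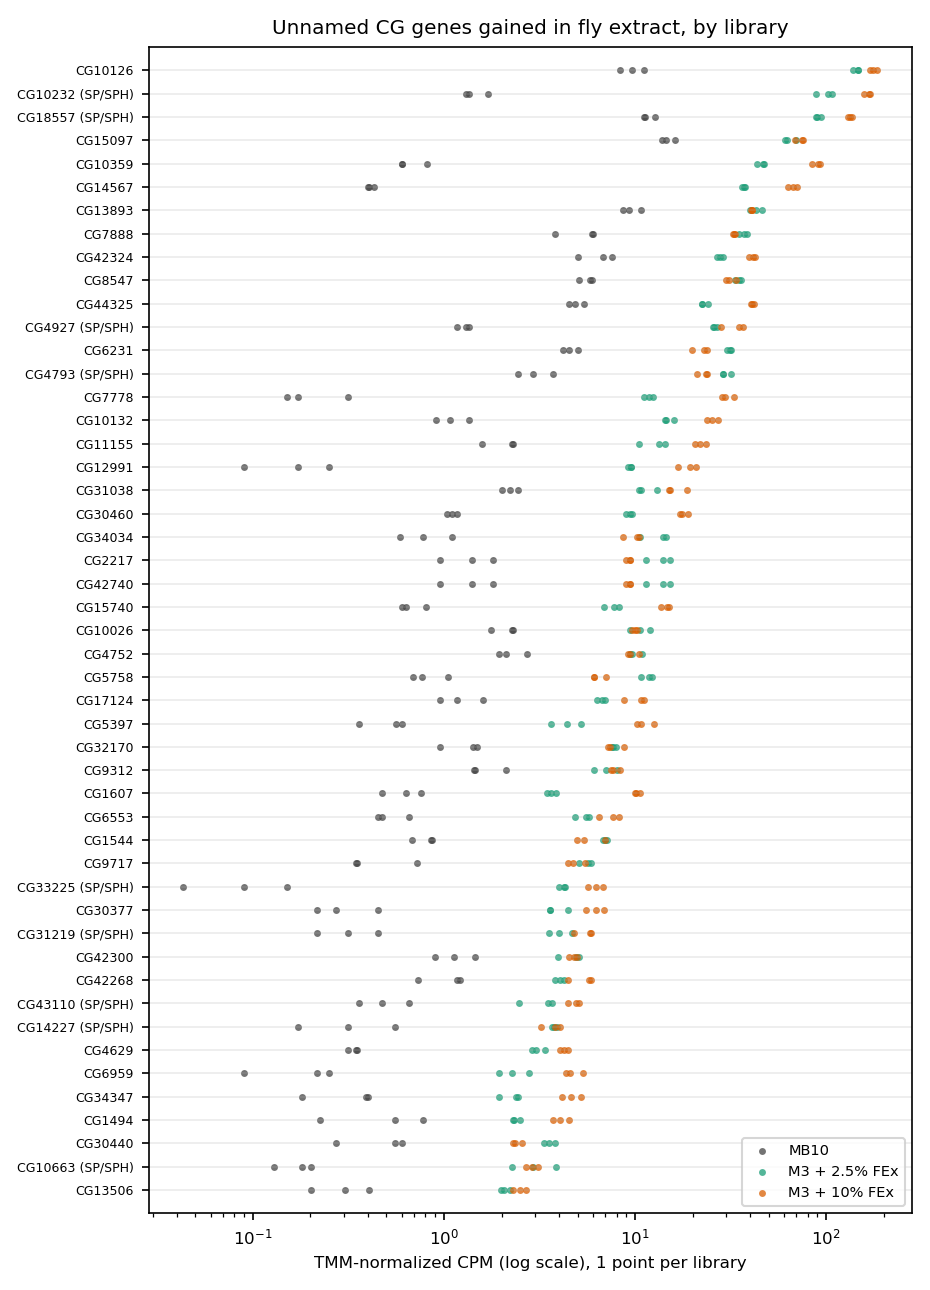
TMM-normalized CPM (log axis) of the 49 members, ordered by mean level in FEx, with 1 point for each of the 9 libraries in 3 media; genes with a serine protease synonym are marked SP/SPH. For each member the 6 FEx points lie to the right of the 3 MB10 points, while the points of the 2 FEx media overlap in 12 members.

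CG10126 (3R: 12855544 to 12859246, minus strand, 978 exon bases) had the highest level. It stood at 11.2, 9.63 and 8.34 CPM in MB10, at 139, 146 and 148 CPM in 2.5% FEx and at 170.0, 185 and 177 CPM in 10% FEx. The media did not overlap, and the step from MB10 to either FEx medium was far wider than the step between the FEx media. Its difference between the FEx media, which the rule did not use, came to log2 0.30 ± 0.08 (± gives the standard error, adjusted p = 0.0179, edgeR quasi-likelihood test). That call was lost, at log2 values of 0.26 to 0.31, when any 2.5% FEx library, or replicate 2 or 3 of 10% FEx, was left out.

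Among the 12 members with the highest levels in FEx, CG10359 and CG14567 had the lowest levels in MB10. CG10359 (3L: 3612192 to 3615244, plus strand) had 0.603, 0.605 and 0.812 CPM in MB10, 43.7, 46.8 and 47.4 CPM in 2.5% FEx, and 84.7, 91.0 and 93.2 CPM in 10% FEx. CG14567 (3L: 21737706 to 21738430, minus strand, a single exon block of 725 bases) had 0.402, 0.432 and 0.406 CPM in MB10, 36.4, 37.1 and 37.7 CPM in 2.5% FEx, and 70.7, 63.5 and 67.3 CPM in 10% FEx. For both, the media formed 3 separate ranges, with 10% FEx highest. CG14567 had the widest ratios to MB10 of all members, 89.7 and 162.6. Between the FEx media, the log2 fold change was 0.96 ± 0.07 for CG10359 (adjusted p = 2.6e-06) and 0.86 ± 0.06 for CG14567 (adjusted p = 3.43e-06). Per kilobase of exon, CG10126 still stood highest in FEx, at 148 and 181 CPM per kb, and CG14567 reached 51.1 and 92.7 CPM per kb.

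CG15097 (2R: 18822188 to 18829699), CG13893 (3L: 599094 to 604008), CG7888 (3L: 11054035 to 11059659) and CG8547 (2R: 14261206 to 14267919) were all on the minus strand except CG7888, and were already present in MB10. CG15097 averaged 14.8 ± 1.22 CPM in MB10 (SD, n = 3), 64.4 ± 4.50 in 2.5% FEx and 72.9 ± 3.57 in 10% FEx. CG7888, with the amino acid transporter synonym, had 5.98, 6.0 and 3.79 CPM in MB10, 37.4, 35.0 and 38.3 CPM in 2.5% FEx, and 32.6, 33.2 and 33.6 CPM in 10% FEx. Its FEx ranges did not overlap, but the log2 difference of -0.16 ± 0.11 did not pass the test (adjusted p = 0.34). CG13893 and CG8547 rested at 43.1 and 34.6 CPM in 2.5% FEx and at 40.8 and 31.6 CPM in 10% FEx, and neither they nor CG15097 passed the test between the FEx media (adjusted p of 0.526, 0.255 and 0.114). CG42324 and CG44325 did rise further in 10% FEx. CG42324 (3L: 3472447 to 3510895, plus strand) had 26.9, 27.8 and 28.9 CPM in 2.5% FEx and 42.7, 39.7 and 41.4 CPM in 10% FEx (log2 0.57 ± 0.10, adjusted p = 0.00216). CG44325 (X: 9070318 to 9078499, minus strand) had 24.1, 22.5 and 22.3 CPM against 41.2, 42.0 and 40.3 CPM (log2 0.84 ± 0.07, adjusted p = 1.25e-05). In both genes every library of 10% FEx was above every library of 2.5% FEx.

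The 9 members with serine protease synonyms were CG10232 (cSP14), CG18557 (cSPH125), CG4927 (cSP42), CG4793 (cSPH128), CG33225 (SPH236), CG31219 (SP6), CG43110 (SP248), CG14227 (SP158) and CG10663 (SP30). They were 18.4% of the members, beside 1.26% of the CG genes at the CPM minimum in both FEx media (28 of 2215, the CG genes set aside by the selection included). This grouping was made after the members were seen and is a description only. Their summed mean level was 18.9 CPM in MB10, 265 CPM in 2.5% FEx and 378 CPM in 10% FEx.

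CG10232 (3R: 23719343 to 23721625, minus strand) had 1.71, 1.30 and 1.35 CPM in MB10, 88.5, 102 and 107 CPM in 2.5% FEx, and 158, 170.0 and 169 CPM in 10% FEx. CG18557 (2L: 2844601 to 2845734, minus strand) had 11.2, 11.3 and 12.8 CPM in MB10, 94.4, 90.2 and 88.2 CPM in 2.5% FEx, and 130.0, 134 and 136 CPM in 10% FEx. Both rose in 3 non-overlapping steps from MB10 through 2.5% to 10% FEx. The log2 fold change between the FEx media was 0.73 ± 0.08 for CG10232 (adjusted p = 6.05e-05) and 0.55 ± 0.06 for CG18557 (adjusted p = 8.69e-05). CG4927 (2R: 16572082 to 16574154, plus strand) averaged 1.28 ± 0.10, 26.1 ± 0.69 and 33.2 ± 4.42 CPM in MB10 and the 2 FEx media (log2 0.34 ± 0.10 between the latter, adjusted p = 0.0244). Its call was lost, at log2 0.27 to 0.36, without any 2.5% FEx library or without replicate 2 or 3 of 10% FEx.

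CG33225 was close to silent without FEx. It had 0.151, 0.0432 and 0.0902 CPM there, 4.22, 3.99 and 4.31 CPM in 2.5% FEx, and 6.77, 6.22 and 5.69 CPM in 10% FEx. Every 10% FEx library was above every 2.5% FEx library, and the difference passed the test (log2 0.58 ± 0.12, adjusted p = 0.00525). CG43110 also rose between the FEx media (log2 0.57 ± 0.16, adjusted p = 0.025), a call lost at 0.41 without 2.5% FEx replicate 2 and at 0.56 and 0.54 without 10% FEx replicate 2 or 3. CG4793 (2L: 15923395 to 15926287, plus strand) went the other way, with 29.02, 29.03 and 31.8 CPM in 2.5% FEx and 23.5, 23.7 and 21.1 CPM in 10% FEx. Its fall (log2 -0.40 ± 0.10, adjusted p = 0.0167) lost its call at -0.35 when replicate 3 of either FEx medium was left out. CG31219, CG14227 and CG10663 did not pass (adjusted p of 0.0577, 0.925 and 0.883).

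Of the 56 other tested genes with such a synonym, 16 rose and 5 fell in 2.5% FEx, and 16 rose and 4 fell in 10% FEx, relative to MB10 (edgeR adjusted p below 0.05, log2 fold change beyond 1). Among the 8705 tested genes, 5.59% rose and 2.93% fell in 2.5% FEx, and 7.34% rose and 3.63% fell in 10% FEx. CG genes that met the rule are missing from these 56 by construction. CG9733 (cSP10), which passed the thresholds but was set aside, is among them and stood at 0.0168, 6.83 and 8.16 CPM in MB10 and the 2 FEx media. Sp212, a named protease gene, rose from 3.71 CPM to 31.9 and 41.4 CPM (log2 3.10 and 3.48). The gene grass, a clip-domain protease of the Toll cascade, rose from 8.17 CPM to 17.9 and 16.5 CPM (log2 1.13 and 1.02). CG3117 (SPH94) rose from 0.0763 CPM to 1.44 and 2.26 CPM and missed the rule on its CPM in 2.5% FEx. Sp212, grass and CG3117 were chosen after their values were seen.

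The rule did not set the order of the FEx media, so the members were compared between them. It did need both FEx means to pass its limits, which removed genes that passed in only 1 FEx medium. The background genes were under no such limit, so the shares are not strictly comparable. In the direct comparison, 26 of 49 members were higher in 10% FEx at an adjusted p under 0.05, beside a background of 10.5% of all genes tested. Another 6 were lower, beside a background of 11.3%, and 17 were not called. The members' median log2 fold change was 0.42 (from -0.85 to 1.49), whereas the median over all genes tested was -0.001. In 29 members all 3 libraries of 10% FEx were above all 3 of 2.5% FEx (background 23.3%), in 8 they were all below (background 23.8%), and in 12 the media overlapped. The count of 26 ranged from 22 to 29 when single libraries were left out. The count of 6 fell to 3 without 2.5% FEx replicate 2 or without 10% FEx replicate 1, and to 2 without 2.5% FEx replicate 3.

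**Figure D2:**
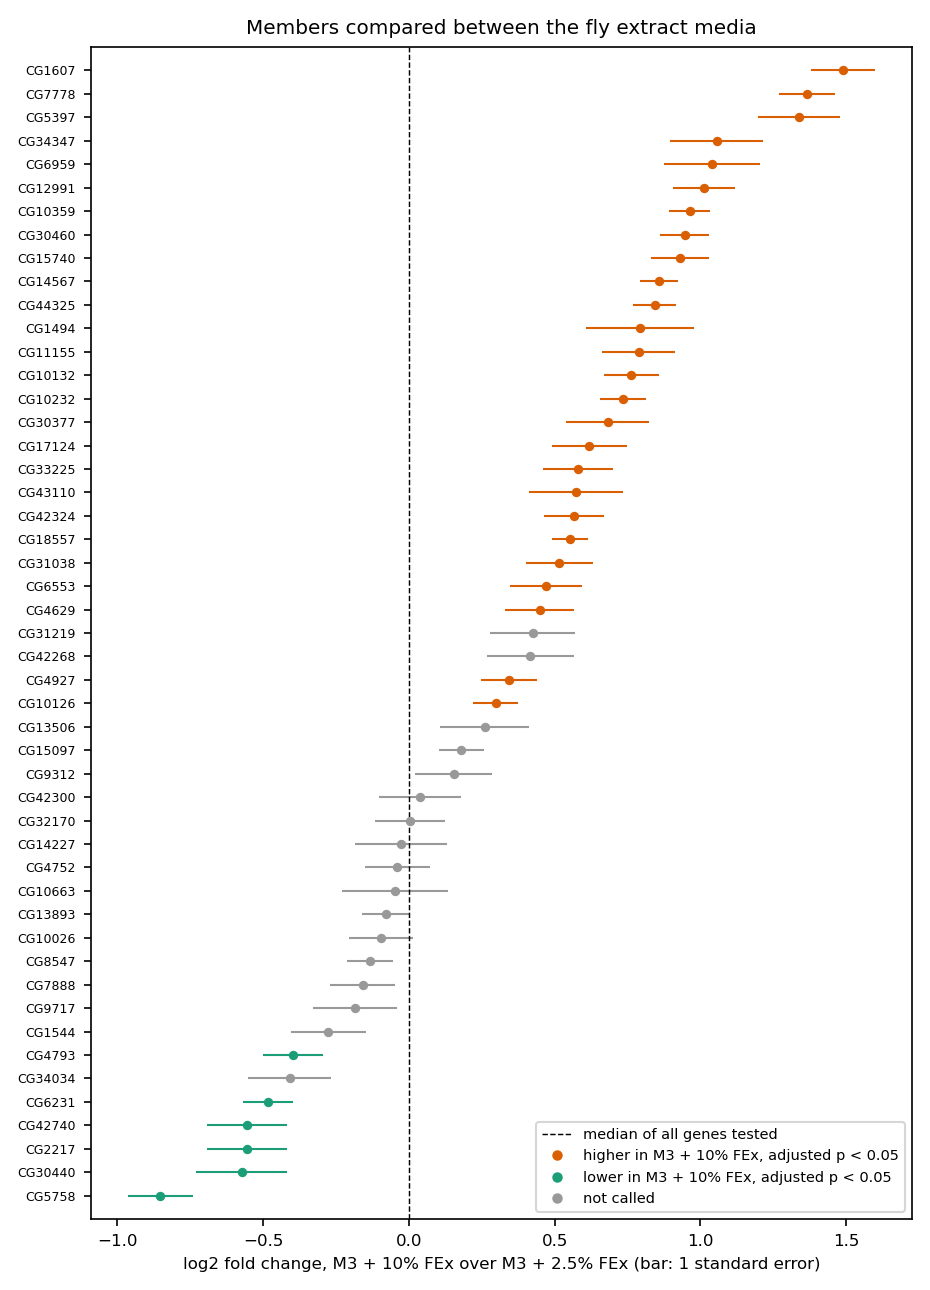
Log2 fold change of 10% FEx over 2.5% FEx for each of the 49 members, with bars of 1 standard error from the edgeR model, and the median of all genes tested as a dashed line. Orange points are the 26 members called higher, green points the 6 called lower and grey points the 17 not called; the points run from -0.85 for CG5758 to 1.49 for CG1607.

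With a log2 fold change above 1 required as well, 6 members were higher (background 2.42%) and 0 were lower (background 1.05%). No member had an edgeR or DESeq2 log2 value under -1 at any p. The rule partly set these counts, as it removed genes with wide differences in either direction. On plain CPM in 2.5% and 10% FEx, CG32373 was left out at 4.09 and 1.80, and CG11378 at 7.07 and 18.8. Of the members, CG1607 changed most. It had 0.754, 0.475 and 0.631 CPM in MB10, 3.84, 3.45 and 3.65 CPM in 2.5% FEx, and 10.6, 10.1 and 10.0 CPM in 10% FEx (log2 between the FEx media 1.49 ± 0.11, adjusted p = 2.98e-06). CG7778 (2L: 8346620 to 8351112, plus strand) had 0.151, 0.173 and 0.316 CPM in MB10, 12.4, 11.9 and 11.1 CPM in 2.5% FEx, and 28.5, 33.1 and 29.6 CPM in 10% FEx (log2 1.37 ± 0.10, adjusted p = 2.16e-06). In both genes the 3 media were separated without overlap.

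CG5397 had 5.20, 4.40 and 3.65 CPM in 2.5% FEx and 10.2, 10.8 and 12.6 CPM in 10% FEx (log2 1.34 ± 0.14, adjusted p = 5.25e-05). CG12991 (X: 17579861 to 17599314, plus strand) had 9.17, 9.58 and 9.50 CPM against 16.8, 20.9 and 19.5 CPM (log2 1.01 ± 0.11, adjusted p = 5.17e-05). Its MB10 libraries held 0.251, 0.173 and 0.0902 CPM, so that it was close to silent without FEx. CG34347 and CG6959 averaged 2.26 and 2.33 CPM in 2.5% FEx and 4.68 and 4.77 CPM in 10% FEx. Their log2 fold changes were 1.06 ± 0.16 (adjusted p = 0.000689) and 1.04 ± 0.16 (adjusted p = 0.000933), and neither overlapped between the FEx media.

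The members that were lower in 10% FEx were CG5758, CG30440, CG2217 with CG42740, CG6231 and CG4793. CG30440 (log2 -0.57 ± 0.16, adjusted p = 0.0212) lost its call, at -0.53 to -0.58, without 2.5% FEx replicate 2 or 3 or without 10% FEx replicate 1 or 2. CG5758 fell most and was chosen here after its values were seen. It had 1.06, 0.691 and 0.767 CPM in MB10, 10.7, 12.3 and 11.9 CPM in 2.5% FEx, and 7.05, 6.08 and 6.12 CPM in 10% FEx (log2 -0.85 ± 0.11, adjusted p = 0.000253). All of its 10% FEx libraries were thus below those of 2.5% FEx and above those of MB10. The shared counts of CG2217 and CG42740 gave 1.41, 1.81 and 0.947 CPM in MB10, 11.4, 14.1 and 15.3 CPM in 2.5% FEx, and 8.96, 9.37 and 9.40 CPM in 10% FEx (log2 -0.55 ± 0.14, adjusted p = 0.0143). Their call was lost at -0.53 without 2.5% FEx replicate 2 or 10% FEx replicate 1, and at -0.47 without 2.5% FEx replicate 3. Since this is 1 set of counts, the 6 lower members hold 5 distinct profiles. CG6231 averaged 31.1 ± 0.88 CPM in 2.5% FEx and 22.2 ± 2.05 CPM in 10% FEx (log2 -0.48 ± 0.09, adjusted p = 0.00216).

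The 10 further members called higher had log2 fold changes of 0.45 to 0.95. At the upper end were CG30460, with 9.59, 8.96 and 9.38 CPM in 2.5% FEx and 17.2, 17.7 and 19.0 CPM in 10% FEx, and CG15740, with 8.24, 7.73 and 6.85 CPM against 13.7, 15.1 and 14.7 CPM. Both were separated without overlap (log2 0.95 ± 0.08 and 0.93 ± 0.10). CG11155, the single member on chromosome 4 (1126602 to 1137919, plus strand), averaged 12.7 and 22.0 CPM in the 2 FEx media (log2 0.79 ± 0.12). The other 7 were CG1494, CG10132, CG30377, CG17124, CG31038, CG6553 and CG4629. Of these, CG1494 lost its call without 10% FEx replicate 1 (log2 0.71), and CG6553 without replicate 1 or 3 of either FEx medium (0.40 to 0.49). CG4629 lost its call without replicate 1 or 2 of 2.5% FEx or 2 or 3 of 10% FEx (0.40 to 0.45), and also under DESeq2. The 17 members not called had log2 values of -0.41 to 0.42, with standard errors of 0.08 to 0.18, so that differences of this size were not detectable for the scarcer of them. CG30460, CG15740 and CG11155 were chosen after their values were seen.

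The same thresholds, applied to genes with names, selected 74 genes. Of these, 36 (48.6%) were higher and 19 (25.7%) were lower in 10% FEx than in 2.5% FEx, with a median log2 fold change of 0.37. For the members the corresponding shares were 53.1% and 12.2%. Of the named genes 10 belonged to a list of 14 antimicrobial effectors, peptides such as the Cecropins, Attacins and Drosomycin that are known targets of Toll and Imd signaling. Without them, 36 of 64 named genes were higher and 11 were lower, with a median of 0.47. The list does not hold every immune gene. PGRP-LB, Mtkl and edin, for example, stayed among the 64 and were lower (log2 -1.63, -2.15 and -1.35). In the antimicrobial list itself, 13 of 14 genes were tested, all 13 rose in both FEx media relative to MB10, and 8 were lower in 10% FEx than in 2.5% FEx (median log2 fold change -0.64). CecA1, for example, stood at 1.53, 238 and 97.5 CPM in MB10, 2.5% FEx and 10% FEx. The difference between the members and these lists was not tested.

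**Figure D3:**
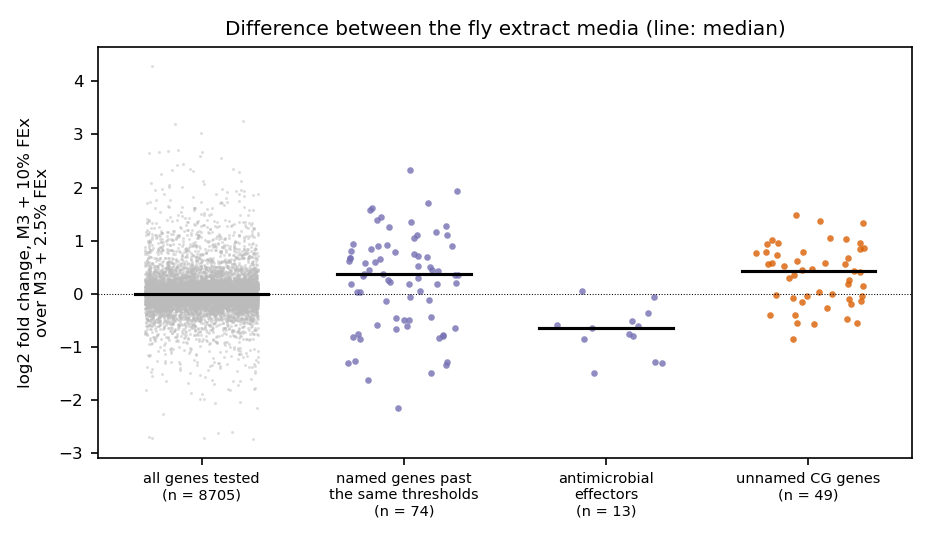
Log2 fold change of 10% FEx over 2.5% FEx (vertical axis) for all 8705 genes tested, the 74 named genes past the same thresholds, the 13 antimicrobial effectors tested (10 of them also among the 74) and the 49 members; each point is a gene, spread sideways at random, and each line a median. The medians are -0.001, 0.37, -0.64 and 0.42.

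Near the thresholds, on plain CPM, the members just inside the fold limit were CG42268, CG42300 and CG13893, whose smaller ratio to MB10 was 4.06, 4.11 and 4.26. Just outside were CG4259, CG42390 and CG11378, at 3.97, 3.89 and 3.71. At the CPM limit, CG13506, CG34347 and CG30440 were inside, with 2.15, 2.32 and 2.37 CPM in the lower FEx medium. CG32091, CG11147 and CG32373 were outside, with 1.91, 1.89 and 1.80 CPM. CG11147 was 25.2 times its MB10 mean at that level, so that the CPM limit alone kept it out. On TMM-scaled CPM, CG42268 fell to 3.89 times MB10 in 2.5% FEx and the rule gave 48 members.

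The members were spread over the genome. Apart from CG2217 and CG42740, no 2 members lay within 10 kb of each other. The nearest pairs were CG1607 and CG34347, 10360 bases apart, and CG6231 and CG31219, 18299 bases apart. The nearest tested named genes on each side of the members, which the rule could not choose, lay a median of 8087 and up to 594479 bases away. Closer CG-numbered genes were passed over, so these neighbors cannot show how far a gain extends along the chromosome. Of 93 such neighbors, 6 rose (6.45%, background 5.59%) and 4 fell (background 2.93%) in 2.5% FEx. In 10% FEx, 10 rose (10.8%, background 7.34%) and 4 fell (background 3.63%). Their median log2 fold changes of -0.01 and 0.04 stood beside -0.04 and -0.04 over all genes tested. Requiring 10 counts in every library compared lowered the counts that rose to 2 and 6.

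**Figure D4:**
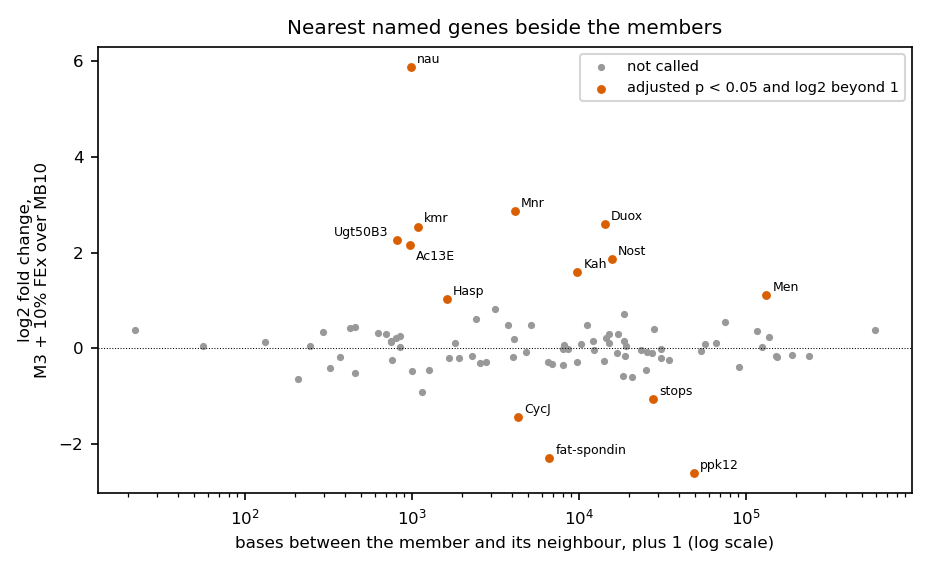
Log2 fold change of 10% FEx over MB10 for the nearest named gene on each side of the members, against the bases between the 2 genes plus 1 (log axis); orange points passed an adjusted p under 0.05 with a log2 fold change beyond 1 and are named, and grey points did not. Most points lie near 0 at all distances, and nau, 985 bases from CG10232, is highest at 5.86.

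The neighbor with the largest change was nau, the fly homolog of the vertebrate myogenic factor MyoD, which lies 985 bases downstream of CG10232 on the same strand. It rose from 0.059 ± 0.051 CPM in MB10 to 2.22 ± 0.30 in 2.5% FEx and 3.89 ± 0.54 in 10% FEx (log2 5.06 and 5.86, adjusted p = 1.04e-06 and 6.83e-08). CG10232 itself averaged 1.45, 99.4 and 165 CPM in these media, and whether the nau counts include reads from it was not tested. Mnr, 4129 bases from CG1494 on the opposite strand, rose in both media, with 40.3 ± 3.45, 213 ± 4.34 and 292 ± 25.1 CPM (log2 2.41 and 2.86). CG1494 itself averaged 2.37 CPM in 2.5% FEx and 4.10 CPM in 10% FEx. Near CG9312, kmr rose at a distance of 1088 bases (log2 2.13 and 2.54), and near CG42300, Ac13E, an adenylyl cyclase gene, rose at 974 bases (log2 1.65 and 2.15). All of these differences passed the test.

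Duox, which encodes the dual oxidase that makes reactive oxygen species, lies 14352 bases from CG18557. It was scarce, at 0.148, 0.375 and 0.952 CPM in the 3 media (log2 1.26 and 2.60). Ugt50B3, a UDP-glycosyltransferase gene 812 bases from CG30440, stood at 5.72, 11.2 and 27.4 CPM and passed only the 10% FEx comparison with MB10 (log2 2.26, adjusted p = 2.29e-09), its log2 value in 2.5% FEx being 0.97. Of the neighbors that fell, fat-spondin (6671 bases from CG30460) went from 147 CPM in MB10 to 86.9 and 30.1 CPM, with log2 values of -0.76 and -2.29, while CG30460 was among the members gained. The gene ppk12, 48794 bases from CG4752, fell from 0.717 CPM in MB10 to 0.318 and 0.106 CPM (log2 -1.13 and -2.60, adjusted p = 0.0338 and 0.000872). Some neighbors thus rose and some fell, as did genes over all those tested.

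Of 10 named genes whose span overlaps a member, 3 rose in both FEx media (background 5.59% in 2.5% FEx and 7.34% in 10% FEx) and 0 fell. Lmpt spans CG32170 on the same strand and shares no exon with it, and it stood at 34.7, 82.2 and 110.1 CPM. NT5E-2, a 5′-nucleotidase gene, overlaps CG43110 on the opposite strand by 130 exon bases and stood at 0.212, 3.65 and 2.03 CPM. The babos gene overlaps CG13506 on the opposite strand by 140 exon bases and stood at 2.42, 10.3 and 9.20 CPM. The counting settings for strand and overlap are not given in the sources used here, so these counts were compared with each other. In longer opposite-strand overlaps the partners did not share counts. CG4629 shares 2098 of its 3115 exon bases with Atg4a, which held 793 to 1361 counts per library, and CG13893 shares 1253 of 2198 with asRNA:CR45807, which held 4 to 12. CG44325 shares 1066 exon bases with CG10970 on the same strand, yet CG10970 held 1 to 16 counts.

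FEx is made from whole flies, so transcripts abundant in tissues of the fly were listed as a check on fly RNA in the libraries. Some, such as the muscle genes and the fat body genes Fbp1 and Fbp2, are also used before the adult stage. The 14 male reproductive tract transcripts summed to 0.041 to 0.402 CPM per library, 7 of them were at 0 in all 9 libraries, and none was abundant enough to be tested. The 10 female reproductive tract transcripts, yolk proteins among them, summed to 0.249 to 1.26 CPM, with their highest value in MB10. The 10 transcripts of fat body and gut summed to 0.043 to 0.319 CPM, with 0 tested. Of 8 muscle transcripts 2 were tested, and Act57B rose in 10% FEx (0.480 CPM in MB10 to 1.15 CPM, log2 1.27, adjusted p = 0.0389). Of the eye and antenna transcripts, lush fell in 10% FEx, from 2.00 CPM in MB10 to 0.765 CPM (log2 -1.41, adjusted p = 0.000657), and Obp19d was also highest in MB10, at 1.62 CPM. Each of these 5 lists summed to 4.69 CPM or less in every library, and that highest sum was the eye and antenna list in MB10. RNA carried over from FEx into the members' counts was not tested.

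Hemocyte subtype markers moved in both directions between MB10 and FEx. Among crystal cell markers, lz, the RUNX factor of that lineage, rose from 0.0144 to 0.666 and 2.02 CPM, and the prophenoloxidase gene PPO1 from 0.165 to 2.66 and 8.10 CPM, while peb fell from 15.97 to 2.05 and 3.57 CPM. PPO2, the other crystal cell prophenoloxidase, was not called, at 2.97, 2.15 and 3.41 CPM. Among lamellocyte markers, the integrin gene ItgaPS4 rose from 3.04 to 14.4 and 43.0 CPM and atilla from 0.0168 to 0.194 and 1.90 CPM, and mthl4 and cher passed only in 10% FEx, at log2 1.08 and 1.13. PPO3, the lamellocyte prophenoloxidase, was not called, at 20.1, 16.1 and 22.2 CPM. He, which was listed here with the plasmatocyte markers, rose in 10% FEx (log2 2.02). Summed levels ran from 17.2 to 22.6, 7.30 to 7.90 and 15.9 to 18.03 CPM for crystal cell markers in MB10, 2.5% FEx and 10% FEx, and from 455 to 470, 619 to 696 and 1003 to 1086 CPM for lamellocyte markers. The lower crystal cell sum in 2.5% FEx followed peb, which held most of that sum in MB10, while lz and PPO1 rose. No listed marker of either type was at 0 in all 9 libraries. The part of these shifts in the members' levels was not tested.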

How the data were processed

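RNA of S2R+ cells in 3 media was measured in 9 libraries prepared with a stranded mRNA kit and sequenced as paired ends. The authors trimmed reads with Trimmomatic 0.36, mapped them with HISAT2 2.1.0 to the *D. melanogaster* genome and deposited whole-number read counts per gene from featureCounts 1.6.4. Strand, multi-mapping and overlap settings are not given in the sources used here, so counts of overlapping or near-identical genes are uncertain. The 9 library totals are given in the results. Intervals on single counts were not computed.

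Symbols and coordinates came from the BDGP6 annotation and synonyms from RefSeq. Of the gene IDs 86, holding 0.603% of counts, matched no symbol. The members and gene lists were chosen with earlier results of these data known, so neither is independent support for a direction. The selection used count over library total. Levels, and all tests, used TMM-normalized counts.

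Tests were edgeR 4.0.16 quasi-likelihood F tests (R 4.3.3), two-sided, on the 8705 genes kept by filterByExpr, with all 9 libraries in 1 model of medium and Benjamini-Hochberg adjustment over all genes tested. All 49 members passed that filter, which the minimum of 2 CPM in 6 libraries makes likely, so their passing is no result. Calls used an adjusted p under 0.05, with a log2 fold change beyond 1 for comparisons with MB10. The procedure was tested on simulated counts. Values were named for the 12 members with the highest CPM in FEx, members called between the FEx media with a log2 fold change beyond 1, members within 10 kb of each other, the 3 genes nearest each threshold on each side, the 8 neighbors with the largest change and the listed genes called. Exceptions are marked. DESeq2 1.42.0, other filters, other scaling, a replicate block and each library left out were alternatives. Protein and promoter sequences were not used here.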

Additional observations from a re-analysis of the deposited data

Results flagged for a closer look

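By the direct test, 26 members were higher in 10% FEx than in 2.5% FEx (background 10.5%) and 6 were lower (background 11.3%). Of the named genes past the same thresholds, 48.6% were higher and 25.7% lower, beside 53.1% and 12.2% of the members. FEx concentration, order of adaptation and passages cannot be told apart in these differences. The rule also removed genes that passed its limits in only 1 FEx medium, which the background did not. Of the members, 6 differed by a log2 fold change above 1 (background 2.42%). They were CG1607 (1.49), CG7778 (1.37), CG5397 (1.34), CG34347 (1.06), CG6959 (1.04) and CG12991 (1.01). The 3 libraries of 10% FEx were above the 3 of 2.5% FEx in each of these 6 genes.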

How the results depend on the processing

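The selection gave 48 to 50 members with single libraries left out, 61 with a minimum of 1 CPM or a ratio of 3, 33 with a ratio of 6 and 32 with a minimum of 5 CPM. Of the members, 22 to 29 were higher and 2 to 7 were lower in 10% FEx than in 2.5% FEx with single libraries left out, and 6 and 0 with a log2 fold change beyond 1. DESeq2 called 25 higher, CG4629 no longer among them, and 6 lower. Neighbors that rose numbered 5 to 8 in 2.5% FEx and 9 to 10 in 10% FEx with single libraries left out, and 2 and 6 with 10 counts required in every library compared. Of the listed hemocyte and fly tissue genes, 12 were called in 10% FEx relative to MB10 (background 7.34% higher and 3.63% lower). Those tested were 18 hemocyte, 2 muscle, and 2 eye and antenna genes. The count was 11 to 13 with single libraries left out, and 7 under the filter of 10 counts, which tests fewer genes.

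For the 32 members called between the FEx media, 444 values under the alternatives kept direction and call and 36, in 10 members, lost the call. For the 17 not called, 230 stayed, 16 passed the threshold and 9, in 5 members close to 0, changed sign. These log2 values were 0.0279 for CG4752 and -0.0686 for CG42300 without 2.5% FEx replicate 1, -0.0024 for CG32170 without its replicate 2, and -0.0160 for CG32170 and 0.1678 for CG10663 without its replicate 3. They were -0.0007 for CG42300, -0.0915 for CG32170 and 0.0525 for CG14227 without 10% FEx replicate 1, 2 and 3, and -0.0050 for CG32170 with no filter. With single libraries left out, the values reached -0.1014 for CG4752, 0.0609 for CG32170, 0.1037 for CG42300, -0.0949 for CG14227 and -0.2173 for CG10663 at the other end. The cause was not tested. Counts near the 2 CPM limit bound the precision of the scarcer members.

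Same-numbered replicates did not deviate together (r from -0.360 to 0.081), so the numbers were not taken as pairs. With the replicate block, 26 members were higher and 5 lower in 10% FEx, 5 and 10 neighbors rose, and 11 listed genes were called. CG30440 lost its call.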
